A study of Marchantia polymorpha with 12 samples.

Results

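The male line Mpfer-1 of the liverwort Marchantia polymorpha was compared with the male wild-type strain Tak-1. Per the labels, Mpfer-1 is a knockdown of MpFER, the liverwort's FERONIA-type receptor kinase gene, and the series describes its rhizoids as short and bursting. All 6 male libraries of the 12 in the series entered, chosen by their column names, with 3 replicates (A, B and C) in each group. The other 6 are the female wild type Tak-2 and a female line labelled Mpmri-1, a knockdown of the kinase gene MpMRI, and they were used for the shared estimate of the spread and for 1 test of difference. The plants had grown from gemmae for 3 weeks on cellophane over solid medium in long days, and thalli were taken with their rhizoids, so each library mixes all cell types. Mpfer-1 is 1 line. The sources used here do not give how many plants went into a library or whether replicates came from separate cultures, so p-values measure only the spread between these libraries. Levels are CPM, counts scaled to a common library size with TMM factors, and are not per length. Changes are compared between groups. Rankings by abundance, level classes, sums over lists and shares of a sum go by counts, which also depend on transcript length.

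FERONIA and its relatives are receptor kinases of the plasma membrane whose outer part binds cell wall pectin and secreted RALF peptides, together with small anchored proteins of the LORELEI type. In Arabidopsis the kinase MARIS acts downstream of this receptor family, and plants without FERONIA have root hairs that burst as they grow at the tip. Rhizoids of liverworts are single cells that grow at the tip, as root hairs do. The receptor is known above all for sensing the state of the cell wall, and in flowering plants also for links to abscisic acid, the hormone of drought, and to immunity.

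The targeted gene carries the symbol MpFERONIA/MpTHESEUS (Mp4g15890) and showed 169, 169 and 154 CPM in the Tak-1 libraries and 102, 89.0 and 95.5 CPM in the Mpfer-1 libraries. The groups did not overlap, and the gene fell (log2 fold change -0.78, SE 0.08, adjusted p 7.18e-06, edgeR quasi-likelihood test with Benjamini-Hochberg adjustment, as for every adjusted p here). The transcript was thus lowered and not lost in the line labelled as its knockdown. Of the genes listed as its ligands and partners, MpRALF2 had 88.1, 84.1 and 91.2 against 45.6, 49.1 and 43.3 CPM in Tak-1 and Mpfer-1 and fell (log2 fold change -0.93, SE 0.10, adjusted p 8.68e-06). MpRALF3 had 12.1, 13.6 and 9.43 against 5.78, 6.32 and 5.87 CPM and fell as well (log2 fold change -0.96, SE 0.16, adjusted p 3.44e-04), while MpRALF1 kept 112, 107 and 114 against 100.5, 97.0 and 97.8 CPM and was not called (log2 fold change -0.18, SE 0.11, adjusted p 0.211). RALF genes encode the secreted peptides that the receptor binds. Among the anchored partner proteins, MpLRE2 had 34.8, 35.0 and 35.9 against 27.3, 29.8 and 25.4 CPM (log2 fold change -0.36, SE 0.09, adjusted p 0.00402, a call lost with library totals in place of TMM), and MpLRE1, with 82.1, 80.4 and 98.4 against 103, 113 and 96.9 CPM, was not called (adjusted p 0.377). MpMRI, the MARIS gene, had 233, 234 and 241 against 235, 212 and 231 CPM, and its groups overlapped (log2 fold change -0.06, SE 0.08, adjusted p 0.512). Of these 7 genes, 4 were called lower and 0 higher, with a median log2 fold change of -0.36. The targeted gene is 1 of the 4, and over all genes tested 27.1% were called lower and 29.1% higher. On library totals 3 of the 7 were lower, with a median of -0.18.

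Changes were widespread, so a share of called members has to be read against the background. Of 14044 genes in the test 56.2% were called at an adjusted p under 0.05, 29.1% as higher and 27.1% as lower. With a change of at least 2-fold, 11.7% were higher and 10% lower. In 35.6% of genes all 3 Mpfer-1 libraries lay above all 3 Tak-1 libraries, and in 32.2% they lay below. Most calls were small: 4845 of the 7893 called genes changed by less than 2-fold, whereas 569 rose and 241 fell at least 8-fold. Fewer cells of a type and less RNA per cell cannot be told apart in such bulk samples, here and for every result that follows. Without TMM, on library totals alone, the median over all genes moved from 0.02 to 0.20 (log2) and the calls became 5460 higher and 2666 lower, so all changes are given relative to the TMM scale.

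The balance of rises and falls depended on how abundant a gene was, counted by its mean CPM over the 6 male libraries. Among the 1890 genes over 100 CPM, 21.3% were called higher and 46.2% lower. Among the 7658 genes at 10 to 100 CPM, 31.5% were higher and 23.6% lower. On library totals the excess of falls among the most abundant genes shrank to 33.8% lower against 30.3% higher. Changes of at least 2-fold took a larger share of the low genes: of the 1591 genes under 1 CPM 21.5% rose and 19.5% fell so far. At 10 to 100 CPM 8.19% rose and 5.28% fell at least 2-fold, and over 100 CPM 7.04% rose and 10.8% fell.

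**Figure D1:**
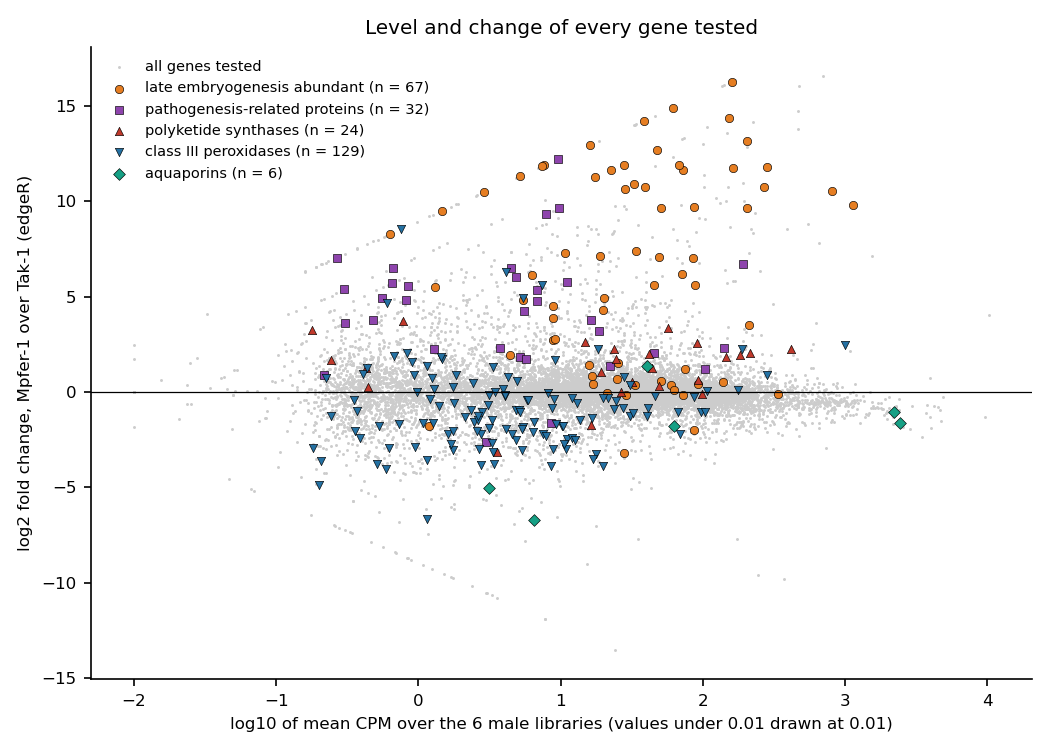
Log2 fold change of each gene tested (y axis) against the log10 of its mean CPM over the 6 male libraries (x axis); grey dots are the 14044 genes tested and coloured symbols are 5 gene lists. Late embryogenesis abundant genes reach a fitted log2 fold change of 16.26, but fits of genes with 0 counts in Tak-1 depend on the prior count. Most class III peroxidases lie under 0, and the 2 most abundant aquaporins lie at -1.60 and -1.05.

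Genes of drying and of oil storage mostly rose, those of drying to a high summed level. Late embryogenesis abundant (LEA) proteins protect cell contents during drying, and 67 of 69 such genes were tested. They summed to 1192, 1201 and 1261 CPM in Tak-1 and to 9443, 8965 and 13473 CPM in Mpfer-1, highest in replicate C. Of the 67, 58 (86.6%) were called higher and 3 lower. MpLEAL1, the most abundant in Mpfer-1, had 1.60, 3.08 and 2.94 CPM in the Tak-1 libraries and 1965, 1898 and 2987 CPM in the Mpfer-1 libraries (log2 fold change 9.80, SE 0.76, adjusted p 8.61e-07). MpLEA-like50 already had 34.4 ± 3.59 CPM (SD, n = 3) in Tak-1 and reached 390.3 ± 119 CPM (log2 fold change 3.50, SE 0.44, adjusted p 3.38e-05). The member that went most the other way was MpLEA-like54, with 53.1, 52.9 and 44.6 against 3.96, 7.18 and 5.23 CPM (log2 fold change -3.20, SE 0.23, adjusted p 4.75e-07). MpLEA-like45 had 0 counts in all 3 Tak-1 libraries and 320.2 ± 118 CPM in Mpfer-1, at least 10648-fold higher when set against 3 counts over the Tak-1 group.

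All 3 genes listed as dehydrins, drought-induced proteins of the LEA kind, rose. MpDHN1 had 0.266, 0.629 and 0.228 CPM in the Tak-1 libraries and 347, 333 and 495 CPM in the Mpfer-1 libraries (log2 fold change 10.02, SE 0.71, adjusted p 4.82e-07). MpDHN2 had 13, 12.2 and 15 against 31.2, 31.2 and 43.2 CPM (log2 fold change 1.39, SE 0.18, adjusted p 4.79e-05) and MpDHN3 had 22.7, 22.9 and 23.4 against 85.5, 74.3 and 125 CPM (log2 fold change 2.05, SE 0.44, adjusted p 0.00193). In each, the lowest Mpfer-1 library was above the highest Tak-1 library, and Mpfer-1 replicate C was highest.

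Lipid droplet proteins, which coat stored oil, were called higher in 7 of 8 genes and lower in 0, with a median log2 fold change of 1.85. MpCALEOSIN had 0.333, 0.252 and 0.228 CPM in the Tak-1 libraries and 38.8, 28.5 and 63.2 CPM in the Mpfer-1 libraries (log2 fold change 7.32, SE 0.87, adjusted p 2.12e-05). MpOLEOSIN, the classic coat protein of seed oil bodies in flowering plants, had 2.50, 2.86 and 3.26 against 29.4, 28.0 and 29.7 CPM (log2 fold change 3.33, SE 0.15, adjusted p 3.36e-08). MpLDAP had 52.7, 51.2 and 54.9 against 137, 149 and 163 CPM (log2 fold change 1.5, SE 0.09, adjusted p 2.19e-07). MpLDPS2 and MpLDAL2 rose with log2 fold changes of 2.41 and 2.21, MpSEIPIN and MpLDPS1 by less (0.78 and 0.34, the latter lost without Mpfer-1 replicate A, with an adjusted p of 0.0573, or Tak-1 replicate A, 0.0770), and MpLDAL1, at 33.2, 35.5 and 31.1 against 31.4, 28.0 and 33.6 CPM, was not called (adjusted p 0.575).

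The genes of abscisic acid itself did not move one way. Of 15 listed genes 10 were tested, 5 of them called higher and 3 lower. MpNCED, whose enzyme makes the precursor of the hormone and is its known control point, had 0.632, 0.786 and 0.771 against 4.36, 4.38 and 6.79 CPM and rose (log2 fold change 2.82, SE 0.35, adjusted p 2.96e-05). MpABA4 rose from 33.6 ± 2.57 to 51.7 ± 9.77 CPM (log2 fold change 0.62, SE 0.13, adjusted p 0.0019), whereas MpABA1, which acts at an earlier step, fell from 263 ± 9.44 to 169 ± 18.5 CPM (log2 fold change -0.64, SE 0.09, adjusted p 9.31e-05). MpCYP707A, for the enzyme that breaks the hormone down, had 3.86, 3.52 and 3.34 against 3.52, 2.62 and 5.06 CPM and was not called (adjusted p 0.817). For the receptor gene MpPYL1, 141, 149 and 153 against 132, 143 and 134 CPM gave no call (adjusted p 0.192). The kinase gene MpSNRK2A rose slightly (log2 fold change 0.35, SE 0.07) and MpSNRK2B fell slightly (-0.30, SE 0.06), a call lost on library totals. The transcription factor genes split: MpABI3A had 35.1, 37.6 and 27.7 against 80.1, 95.3 and 83.7 CPM (log2 fold change 1.37) and MpABI5B 25.2, 25.4 and 26.8 against 67.4, 82.2 and 95.2 CPM (1.66), both higher, while MpABI5A had 54.0, 54.3 and 54.0 against 27.9, 29.1 and 28.5 CPM (-0.92).

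Genes of pathogenesis-related proteins, part of plant defence, mostly rose. Of 47 genes listed as pathogenesis-related proteins 32 were tested, and 29 of them (90.6%) were called higher, each at least 2-fold, and 2 lower. The other 15 did not pass the filter on low counts, and a gene silent in Tak-1 could pass only by being expressed elsewhere. MpPR1w had 2.80, 2.3 and 5.8 CPM in the Tak-1 libraries and 434, 404 and 309 CPM in the Mpfer-1 libraries (log2 fold change 6.71, SE 0.50, adjusted p 6.64e-07). MpPR15j had 0 counts in the Tak-1 libraries and 27.3, 20.3 and 9.64 CPM in Mpfer-1, at least 598-fold higher against 3 counts over the group. The 2 that fell were MpPR1j, with 5.99, 5.22 and 4.26 against 0.693, 1.17 and 0.657 CPM (log2 fold change -2.62, SE 0.34, adjusted p 4.81e-05), and MpPR1e, with 13, 12.7 and 13.1 against 5.03, 4.59 and 3.14 CPM (log2 fold change -1.61, SE 0.22, adjusted p 6.86e-05). Summed over the list, Tak-1 replicate C was the highest of the wild-type libraries: 158, 124 and 253 CPM in Tak-1 against 1299.9, 1131 and 891 CPM in Mpfer-1. Leaving out 1 library at a time, when the filter by group lets more of the list pass, 30 to 32 were called higher and 2 lower.

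Chitinases of glycoside hydrolase family 19 break down chitin of fungal walls. MpGH19.13 had 18.4, 14.0 and 41.3 CPM in the Tak-1 libraries and 672, 543 and 587 CPM in the Mpfer-1 libraries (log2 fold change 4.61, SE 0.39, adjusted p 1.53e-06) and was the largest rise among symbol-bearing genes with at least 10 CPM in Tak-1. MpGH19.3 had 20.3, 13.3 and 44.9 against 286, 248 and 287 CPM (log2 fold change 3.38, SE 0.44, adjusted p 4.17e-05). The wall-associated kinase gene MpWAK, of a family that binds pectin in flowering plants, rose from 0.962 ± 0.437 to 34.8 ± 10.2 CPM (log2 fold change 5.15, SE 0.35, adjusted p 3.87e-07). It was the largest change among the 88 receptor-like kinase genes tested, a list that otherwise leaned down, with 16 called higher and 34 lower. The direction of that lean held in each alternative fit, but its size varied: 21 were higher and 27 lower on library totals. Leaving out 1 library at a time gave 10 (without Tak-1 replicate B) to 16 higher and 29 to 35 lower.

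WRKY genes encode transcription factors best known from defence. Of 13 tested, 8 were called higher and 4 lower. MpWRKY7 had 1.56, 1.45 and 1.69 against 12.1, 9.99 and 7.81 CPM (log2 fold change 2.67, SE 0.19, adjusted p 5.10e-07), MpWRKY11, the most abundant, 992, 943 and 1089 against 1361, 1364 and 1322 CPM (log2 fold change 0.42, SE 0.09, adjusted p 0.00157), and MpWRKY13 fell, with 22.0, 21.6 and 19.4 against 8.23, 6.81 and 8.71 CPM (log2 fold change -1.40, SE 0.13, adjusted p 4.09e-06). ERF/AP2 factors, the family of ethylene and drought responses, had 10 of 20 called higher and 1 lower. Their largest change, MpERF9, was uneven, with 0.0666, 0.0944 and 0.0571 against 4.59, 0.863 and 9.13 CPM (log2 fold change 6.0, SE 0.87, adjusted p 1.01e-04): replicate B of Mpfer-1 was far under the other two. The fall called in that family was that of MpERF10 (log2 fold change -0.69, SE 0.16, adjusted p 0.00321). Lower calls in it numbered 2 in DESeq2, with RLE factors, in the male libraries alone and with the replicate block, and 3 without Tak-1 replicate C.

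**Figure D2:**
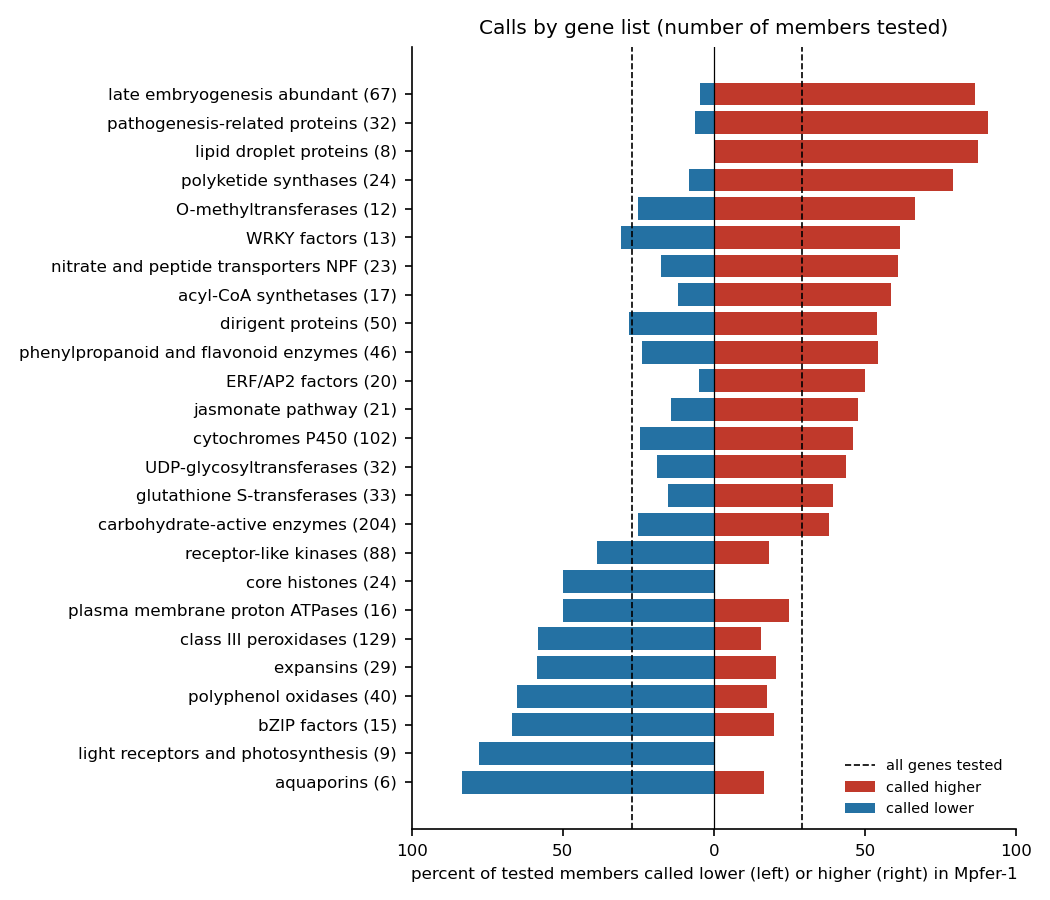
Percent of tested members called higher (red, to the right) or lower (blue, to the left) in Mpfer-1 for 25 of the 64 gene lists, with the number tested in brackets. The 25 were picked without a set rule, and lists such as MYB factors and pentatricopeptide repeat proteins are not drawn. Dashed lines mark the shares over all genes tested, 29.1% higher and 27.1% lower. LEA, pathogenesis-related, lipid droplet and polyketide synthase genes extend far right of the line, and aquaporins, light and photosynthesis genes, bZIP factors, polyphenol oxidases, expansins and class III peroxidases far left.

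The entry to phenolic metabolism rose in a block of neighbouring genes. Phenylalanine ammonia-lyase (PAL) turns phenylalanine towards phenylpropanoids, and type III polyketide synthases, the family of chalcone synthase, build flavonoid and bibenzyl skeletons from them. In the order of locus numbers, 11 successive tested genes from Mp4g14100 to Mp4g14220, 7 polyketide synthases and 4 PAL genes, all rose at least 2-fold. This was the longest such run of rises. MpPKS/CHS15, the most abundant of them, had 141, 125 and 165 CPM in the Tak-1 libraries and 713, 725 and 638 CPM in the Mpfer-1 libraries (log2 fold change 2.27, SE 0.13, adjusted p 1.55e-07). MpPKS/CHS13 had 11.0, 9.03 and 10.4 against 129, 105 and 80.3 CPM (log2 fold change 3.37, SE 0.20, adjusted p 1.97e-07) and MpPAL7 had 4.86, 3.43 and 4.40 against 54.5, 49.4 and 29.6 CPM (log2 fold change 3.39, SE 0.29, adjusted p 1.72e-06), the steepest rise of the run. The smallest rises were those of MpPKS/CHS12, with 10.9, 10.6 and 15.7 against 31.9, 24.2 and 22.0 CPM (log2 fold change 1.07, SE 0.20, adjusted p 6.51e-04), and MpPKS/CHS16, with 24.9, 20.2 and 32.2 against 76.6, 62.6 and 47.5 CPM (log2 fold change 1.27, SE 0.20, adjusted p 2.13e-04). Even there the groups did not overlap. For MpPKS/CHS10, MpPKS/CHS11 and MpPKS/CHS14 the log2 fold changes were 2.55, 2.63 and 2.06, and for MpPAL6, MpPAL4 and MpPAL-like2 they were 2.58, 1.79 and 1.34. These copies are alike in name and place, so reads may have been divided between them in the authors' estimates, and the value of a single copy is uncertain.

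**Figure D3:**
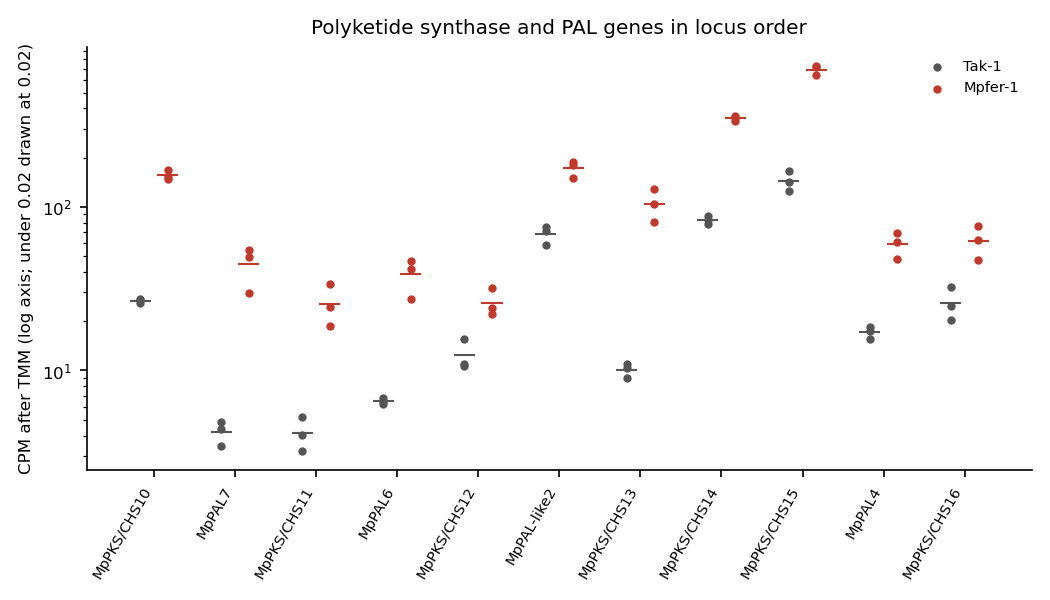
CPM on a log axis of the 11 neighbouring polyketide synthase and PAL genes in locus order, with a dot for each of the 3 Tak-1 (grey) and 3 Mpfer-1 (red) libraries and a line at the mean. Every Mpfer-1 dot lies above every Tak-1 dot of the same gene, from a log2 fold change of 1.07 for MpPKS/CHS12 to 3.39 for MpPAL7.

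Over the whole list of polyketide synthases 19 of 24 were called higher and 2 lower. The largest fall was that of MpPKS/CHS7, with 5.36, 7.83 and 6.26 against 0.607, 0.955 and 0.609 CPM (log2 fold change -3.17, SE 0.26, adjusted p 1.15e-06). Of 46 phenylpropanoid and flavonoid genes tested 25 were higher and 11 lower. MpPAL2, nearly silent in Tak-1, had 0.166, 0.0315 and 0.143 against 19.5, 10.2 and 6.28 CPM (log2 fold change 6.67, SE 0.59, adjusted p 2.38e-06), and MpC4H1, which acts on the product of PAL, had 261, 245 and 305 against 585, 506 and 417 CPM (log2 fold change 0.90, SE 0.12, adjusted p 5.61e-05). MpDFR-like5 fell most, with 5.36, 4.88 and 4.88 against 0.231, 0.401 and 0.195 CPM (log2 fold change -4.20, SE 0.25, adjusted p 1.79e-07). Enzyme families with members that can decorate such products also leaned up. Of 12 O-methyltransferases 8 were higher and 3 lower, of 32 UDP-glycosyltransferases 14 and 6, and of 102 cytochromes P450 47 and 25. These lists go by symbol alone, and what their members act on is not known here. MpCYP822A1 had 51.7, 45.3 and 53.9 against 457, 407 and 315 CPM (log2 fold change 2.97, SE 0.19, adjusted p 2.97e-07). MpOMT9 rose from 14.3 ± 0.656 to 126 ± 16.8 CPM (log2 fold change 3.15, SE 0.19, adjusted p 2.12e-07), and MpOMT3 fell from 37.1 ± 5.52 to 2.54 ± 0.483 CPM (log2 fold change -3.86, SE 0.19, adjusted p 7.16e-08).

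Dirigent proteins steer the coupling of phenolic radicals, for lignan-like compounds among others. Of 50 tested, 27 were called higher and 14 lower. A run of 6 neighbours, which holds MpDIR44 and MpDIR46, rose with log2 fold changes of 7.81 to 11.39. MpDIR46 had 4.86, 3.43 and 9.23 CPM in the Tak-1 libraries and 1178, 1226 and 1540.2 CPM in the Mpfer-1 libraries (log2 fold change 7.81, SE 0.54, adjusted p 4.0e-07). MpDIR44 had 0.0666, 0.0315 and 0.114 against 178, 211 and 226 CPM (log2 fold change 11.39, SE 0.76, adjusted p 3.44e-07). The list's steepest fall, that of MpDIR54 (log2 fold change -3.28, SE 0.48, adjusted p 1.18e-04), was at a level under 1 CPM in every male library.

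In contrast, the enzymes that oxidise phenolics in the wall and cell mostly fell. Class III peroxidases are secreted enzymes that cross-link or loosen wall polymers. Of 164 listed genes 129 were tested, of which 75 (58.1%) were called lower, 66 of them at least 2-fold, and 20 (15.5%) higher. MpPOD154 had 43.0, 37.0 and 31.5 CPM in the Tak-1 libraries and 2.05, 2.40 and 3.02 CPM in the Mpfer-1 libraries (log2 fold change -3.89, SE 0.28, adjusted p 5.07e-07), and MpPOD52 had 17.2, 14.4 and 16.8 against 0.838, 1.02 and 1.41 CPM (log2 fold change -3.87, SE 0.31, adjusted p 9.86e-07). A single gene went so far the other way that the sum over the list rose: MpPOD164, the most abundant, had 272, 280.4 and 372 CPM in the Tak-1 libraries and 1619, 1653 and 1839 CPM in the Mpfer-1 libraries (log2 fold change 2.47, SE 0.21, adjusted p 1.71e-06). The peroxidases together had 2518 ± 254 CPM in Tak-1 and 3560.0 ± 142 CPM in Mpfer-1, but without MpPOD164 the means were 2210.3 and 1856 CPM. MpPOD139 had 0 counts in the Tak-1 libraries and 1.27, 1.85 and 1.41 CPM in those of Mpfer-1, at least 48.4-fold higher against 3 counts over the group.

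Polyphenol oxidases, which turn phenols into quinones, had 26 of 40 called lower and 7 higher, with a median log2 fold change of -1.78. MpPPO6 had 16.4, 16.1 and 11.1 against 0.895, 0.678 and 1.05 CPM (log2 fold change -4.04, SE 0.37, adjusted p 2.67e-06), and the abundant MpPPO42 317, 306 and 366 against 70.1, 142 and 78.9 CPM (log2 fold change -1.77, SE 0.26, adjusted p 1.08e-04), with Mpfer-1 replicate B above the other two. MpPPO25 was the largest exception, rising from 0.0501 ± 0.0308 to 8.92 ± 3.29 CPM (log2 fold change 7.32, SE 0.55, adjusted p 6.76e-07). Peroxidases and polyphenol oxidases fell in shared stretches of the chromosome too: MpPPO8, MpPPO9 and 5 peroxidase genes formed a run of 7 falls. Cupins, a mixed family of storage-type and wall proteins, split into 24 higher and 20 lower of 60, with 7 neighbours around MpCupin75 falling together. MpCupin75 had 13, 14.3 and 12.5 against 0.722, 0.925 and 0.949 CPM (log2 fold change -3.93, SE 0.21, adjusted p 9.02e-08), and MpCupin83, the most abundant, had 552, 566 and 551 against 110.5, 147 and 117 CPM (log2 fold change -2.16, SE 0.22, adjusted p 5.90e-06).

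Among the enzymes that handle reactive oxygen, the catalase genes changed in opposite ways. MpCAT2, whose enzyme breaks down hydrogen peroxide, had 1961, 1968 and 2142 against 891, 986 and 966 CPM (log2 fold change -1.09, SE 0.09, adjusted p 1.51e-06). MpCAT1 had 0 counts in the Tak-1 libraries and 67.9, 36.5 and 97.2 CPM in those of Mpfer-1, at least 2246-fold higher against 3 counts over the group. Of 33 glutathione S-transferases, detoxifying enzymes, 13 were called higher and 5 lower. MpGST28 had 7.92, 7.30 and 15 against 201, 145 and 130.0 CPM (log2 fold change 3.97, SE 0.29, adjusted p 5.20e-07), MpGST31 rose too (log2 fold change 2.87, SE 0.15), and MpGST16 fell, with 17.6, 16.5 and 22.0 against 1.76, 1.54 and 2.60 CPM (log2 fold change -3.23, SE 0.21, adjusted p 2.58e-07).

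Among cell wall genes, those of loosening proteins mostly fell, and the listed genes of the cellulose synthase superfamily took no single direction. Of 29 expansins tested, which loosen walls as cells grow, 17 were called lower and 6 higher. MpExpansin25 had 5.53, 5.41 and 4.68 against 0.404, 0.462 and 0.243 CPM (log2 fold change -3.82, SE 0.29, adjusted p 7.62e-07), and the most abundant, MpExpansin15, 473, 503 and 465 against 312, 415 and 287 CPM (log2 fold change -0.51, SE 0.14, adjusted p 0.00801). MpExpansin36 rose, from 0.226 ± 0.0584 to 2.46 ± 0.166 CPM (log2 fold change 3.42, SE 0.25, adjusted p 5.58e-07). The 10 genes of the cellulose synthase superfamily that the list found are all of the CSLD kind, whose enzymes make wall polymers at the tips of root hairs and pollen tubes in flowering plants. MpCSLD4 had 36.3, 32.6 and 25.9 against 7.86, 9.00 and 7.74 CPM (log2 fold change -1.95, SE 0.28, adjusted p 1.06e-04), and MpCSLD5 and MpCSLD2 fell as well, with log2 fold changes of -2.13 and -1.20. The more abundant MpCSLD9 had 569, 578 and 517 against 797, 737 and 758 CPM and rose (log2 fold change 0.46, SE 0.11, adjusted p 0.00411), as did MpCSLD8 (0.39) and MpCSLD10 (0.46), while MpCSLD3, with 323, 322 and 255 against 320.1, 311 and 316 CPM, was not called (adjusted p 0.641). Another fall, that of MpCSLD7 (log2 fold change -0.37, SE 0.12, adjusted p 0.0213), was lost on library totals and in 5 of the 6 fits that left out 1 library: of these 6, only without Tak-1 replicate C did it stay under 0.05. Carbohydrate-active enzymes were called higher in 78 and lower in 51 of 204. The most abundant one that fell, MpCE8.7, carries the name of the pectin methylesterase family and had 723, 735 and 764 against 416, 423 and 368 CPM (log2 fold change -0.88, SE 0.11, adjusted p 3.15e-05). MpGH16.29 had 2.1, 2.89 and 1.94 against 0.0289, 0 and 0 CPM, with 1 count left over the Mpfer-1 group.

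Water channels and ammonium transporters were mostly lower, while the wider list of ion and nutrient transporters was mixed, with 24 of 56 called higher and 18 lower. Aquaporins, the water channels of plasma membrane (PIP) and vacuole (TIP), had 5 of 6 called lower, all at least 2-fold. Together they dropped from 6803 ± 41.2 to 2741 ± 227 CPM. MpTIP1 had 3660.0, 3705 and 3699 CPM in the Tak-1 libraries and 1100.4, 1255 and 1282 CPM in the Mpfer-1 libraries (log2 fold change -1.60, SE 0.11, adjusted p 4.81e-07). MpPIP2 had 2978, 3015 and 2937 against 1299, 1569 and 1455 CPM (log2 fold change -1.05, SE 0.10, adjusted p 4.64e-06), and MpTIP2 had 95.4, 92.5 and 104 against 23.9, 32.3 and 28.1 CPM (log2 fold change -1.79, SE 0.17, adjusted p 3.88e-06). The low-level MpPIP1 and MpPIP2-like nearly vanished: MpPIP1 had 4.29, 7.71 and 6.28 against 0.231, 0.154 and 0.170 CPM (log2 fold change -5.01, SE 0.36, adjusted p 5.35e-07) and MpPIP2-like 13.9, 10.6 and 14.1 against 0, 0.247 and 0.122 CPM (log2 fold change -6.69, SE 0.60, adjusted p 2.46e-06). The sixth, MpNIP, of a subfamily that also carries small solutes, rose, with 21.6, 19.7 and 26.4 against 61.7, 64.7 and 50.9 CPM (log2 fold change 1.39, SE 0.13, adjusted p 2.59e-06).

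Of the ammonium transporters 4 of 6 tested were called lower and 1 higher; 11 of the 17 listed did not pass the filter on low counts. MpAMT1.2 had 290.1, 292 and 246 against 76.5, 62.3 and 84.7 CPM (log2 fold change -1.89, SE 0.15, adjusted p 8.67e-07) and MpAMT2.3 33.3, 37.2 and 12.1 against 1.13, 1.79 and 1.22 CPM (log2 fold change -4.32, SE 0.43, adjusted p 5.42e-06), with Tak-1 replicate C the lowest of its group. MpAMT2.1 was called higher on 9 counts over Tak-1 and 30 over Mpfer-1 (log2 fold change 1.52, SE 0.53, adjusted p 0.0287), a call lost in DESeq2 and without any of 4 of the 6 libraries in turn: 0.0758 without Mpfer-1 replicate A, 0.0986 without its replicate C, 0.107 without Tak-1 replicate B and 0.0788 without its replicate C, each as an adjusted p. Proton ATPases of the plasma membrane, which acidify the wall and drive uptake, had 8 of 16 lower and 4 higher. MpHA12 had 11.3, 9.75 and 9.43 against 1.27, 1.14 and 1.70 CPM (log2 fold change -2.88, SE 0.27, adjusted p 3.74e-06), while MpHA4 had 315, 261 and 315 against 642, 479.9 and 535 CPM (log2 fold change 0.90, SE 0.19, adjusted p 0.00152) and MpHA1 2.70, 2.86 and 4.03 against 12.4, 7.37 and 9.98 CPM (log2 fold change 1.63, SE 0.22, adjusted p 6.0e-05). Transporters of the nitrate and peptide family NPF went the other way, with 14 of 23 higher and 4 lower.

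**Figure D4:**
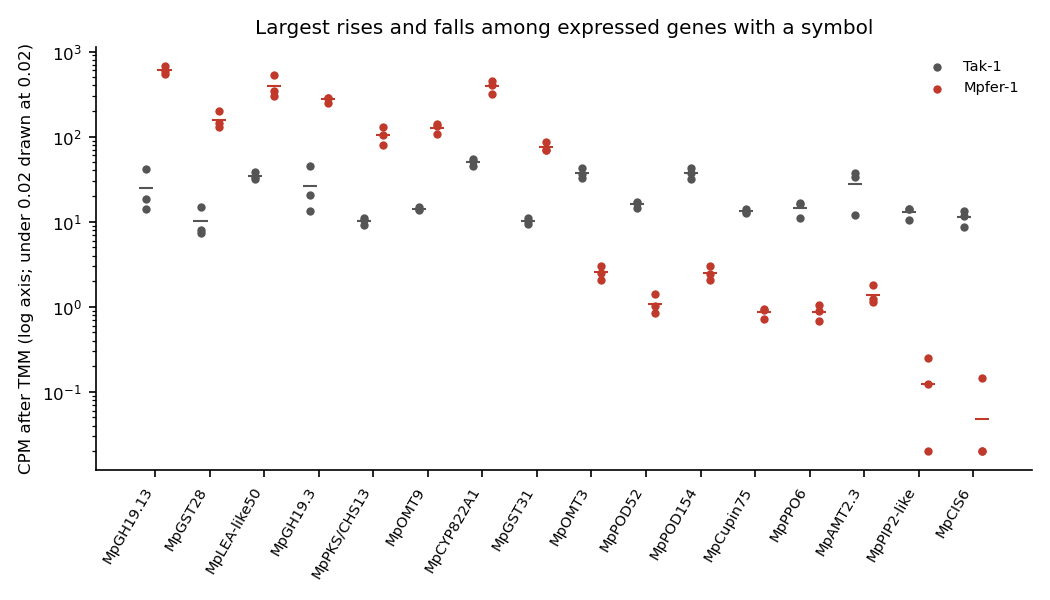
CPM on a log axis, with a dot for each library (grey Tak-1, red Mpfer-1) and a line at the mean, of the 8 largest rises and 8 largest falls among genes that have a symbol, a mean of at least 10 CPM in Tak-1 and groups that do not overlap. They run from MpGH19.13, with a log2 fold change of 4.61, to MpCIS6, with -7.80, which is left with 5 counts over the Mpfer-1 group.

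In the lists of light use, core histones and the cytoskeleton 0 genes were called higher, whereas genes of cell division went both ways. MpRBCS, which encodes the small subunit of the carbon-fixing enzyme Rubisco, had 278, 265 and 308 CPM in the Tak-1 libraries and 77.3, 89.1 and 76.0 CPM in the Mpfer-1 libraries (log2 fold change -1.81, SE 0.18, adjusted p 4.89e-06). The photoreceptor genes MpPHOT (-0.73, SE 0.13) and MpPHY (-0.35, SE 0.08, a call lost on library totals, with an adjusted p of 0.191) fell, as did MpCOP1 (-0.71, SE 0.09), a repressor of light responses, on the log2 scale. MpBHLH6, also listed as MpPIF, a factor that phytochrome acts on, had 595, 607 and 594 against 402, 375 and 408 CPM and fell too (log2 fold change -0.60, SE 0.11, adjusted p 7.95e-04). Of 9 genes on this list 7 were called lower and 0 higher, or 4 and 1 on library totals. Core histones, made mainly as DNA is copied, had 12 of 24 called lower and 0 higher, or 9 and 1 on library totals. MpH3.1c had 56.5, 51.6 and 49.9 against 26.9, 28.8 and 16.2 CPM (log2 fold change -1.14, SE 0.24, adjusted p 0.00143), and the abundant MpH2A.X.1 242, 239 and 258 against 178, 190.1 and 160.4 CPM (log2 fold change -0.48, SE 0.09, adjusted p 7.78e-04). Of 11 cell cycle genes, MpCYCD_2 (16.1, 14.5 and 16.7 against 7.68, 5.08 and 6.86 CPM, log2 fold change -1.27), MpCYCB_1 (-0.96), MpKRP (-0.57) and MpCDKA (-0.34) were called lower, a share (36.4%) to be read against 27.1% of all genes. On library totals MpKRP (adjusted p 0.0615) and MpCDKA (0.117) were not called. MpRBR was called higher (log2 fold change 0.29, SE 0.10, adjusted p 0.0221), but not without Mpfer-1 replicate A (adjusted p 0.0624), Mpfer-1 replicate C (0.0571) or Tak-1 replicate C (0.0934). The MCM genes, whose helicase opens DNA for its copying, had 2 of 9 called higher and 0 lower, with 2 lower in DESeq2 and 3 without Tak-1 replicate C.

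Of 6 actin, tubulin and motor genes, 5 were called lower. MpTUB4 had 4.53, 4.78 and 4.77 against 0.982, 1.11 and 1.41 CPM (log2 fold change -2.0, SE 0.22, adjusted p 1.22e-05), and MpMYOSIN_XI-2, a motor of tip growth in flowering plants, also fell (log2 fold change -0.49, SE 0.15). MpTUB2 (-0.26), MpACT1 (-0.33, lost on library totals) and the weakly expressed MpTUA5 (-1.62) were the others, and MpACT2 was not called (adjusted p 0.159). On library totals 2 of the 6 were lower, with MpTUB2 and MpMYOSIN_XI-2 no longer among them, and MpACT2 was higher, and 3 were lower without Mpfer-1 replicate C. The calls of MpTUB2 and MpMYOSIN_XI-2 were each lost without that library (adjusted p 0.101 and 0.0506), without Tak-1 replicate A (0.0567 and 0.0577) and without Tak-1 replicate B (0.0620 and 0.0608). The abundant fatty acid desaturase gene MpFAD10 had 762, 771 and 803 against 239.9, 276 and 255 CPM (log2 fold change -1.60, SE 0.09, adjusted p 9.89e-08), and MpFAD9 fell too (-1.89, SE 0.13), although the 14 desaturases as a list turned from 2 higher and 6 lower to 6 and 5 on library totals.

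Of the other hormone lists, jasmonate genes had 7 higher and 2 lower by at least 2-fold of 21, and SAUR genes, named for an early response to auxin, 3 and 3 of 14. In the auxin list 6 of 18 were called higher and 4 lower, 1 of them by at least 2-fold. The efflux carrier gene MpPIN3, which had 2.43, 1.98 and 1.83 against 86.0, 75.5 and 70.8 CPM, rose most (log2 fold change 5.22, SE 0.30, adjusted p 1.35e-07), and the more abundant MpPIN1 rose slightly (log2 fold change 0.59, SE 0.09, adjusted p 1.84e-04). At any size 10 of the 21 jasmonate genes were higher and 3 lower. For the 14 SAUR genes these counts were 3 and 5 (4 and 4 on library totals). Their summed level was 399 ± 14.5 CPM in Tak-1 and 175 ± 19.9 CPM in Mpfer-1. Of 15 bZIP factors 10 were lower and 3 higher, which became 4 and 4 on library totals, and 6 were lower without Mpfer-1 replicate C. MYB factors, with 21.7% higher and 17.4% lower, and pentatricopeptide repeat proteins, with 20.8% each way, lay under the shares over all genes. Of the 46 MYB factors 8 were lower, and 4 without Tak-1 replicate A or on library totals, and the 72 repeat proteins had 24 higher and 8 lower on library totals. Terpene synthases had 8 higher and 6 lower of 23, led by MpFTPSL8 with 2.96, 2.71 and 4.8 against 85.8, 86.7 and 60.9 CPM (log2 fold change 4.47, SE 0.32, adjusted p 5.10e-07) and, downward, by MpTPS-like1 (log2 fold change -3.15, SE 0.31, adjusted p 5.15e-06).

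Marker lists of cell types were set beside these results. Rhizoid genes had 3 of 14 called higher and 4 lower (6 lower in DESeq2 and with RLE factors, and 7 without Tak-1 replicate C). All 7 calls are CSLD genes already described, which make up 10 of the 14, so the list is no separate evidence. Their summed level was 1567 ± 157 CPM in Tak-1 and 1738 ± 46.5 CPM in Mpfer-1, but MpCSLD9 alone held 43.9% of the Mpfer-1 sum, and without it the means were 1013 and 974 CPM. The rhizoid regulator MpBHLH14, also listed as MpRSL1, had 19.6, 20.3 and 15.3 against 19.1, 19.3 and 17.8 CPM, with overlapping groups (log2 fold change 0.03, SE 0.12, adjusted p 0.859). The level of a single regulator in whole thalli does not show how much rhizoid RNA a library held. Gemma cup genes had 4 of 8 higher and 1 lower, with summed levels of 189.9 ± 10.3 and 221 ± 7.61 CPM. Their regulator MpGCAM1 had 2.56, 2.89 and 2.14 against 3.99, 5.33 and 3.48 CPM (log2 fold change 0.75, SE 0.21, adjusted p 0.00948), and MpKAI2B had 10.6, 9.31 and 5.83 against 18.8, 19.6 and 21.5 CPM, a call lost without Tak-1 replicate C (adjusted p 0.0687). This list, matched by symbol, takes in signalling genes such as MpKAI2B and MpSMXL, so it is no marker of cup cells alone. MpSMXL held 28.4% of the Mpfer-1 sum. Oil body cell genes had 9 of 21 higher and 4 lower (9 and 2 on library totals) and summed to 350.4 ± 21.1 and 445 ± 40.7 CPM. That list shares members with the terpene synthases already described, including the largest rise (log2 fold change 4.47), so it is not independent of them. Genes listed for male sexual organs and sperm had 1 of 7 higher, MpMID (0.74), and 1 lower, MpTUA5. Their summed level was the same within the spread, 220.5 ± 5.87 CPM in Tak-1 and 218 ± 7.81 CPM in Mpfer-1. MpRKD alone held 60.4% of the Mpfer-1 sum, and without it the means were 82.7 and 86.2 CPM. The list, matched by symbol, also holds the sex determination gene MpBPCU, so it is not of male organs alone. The part of cell type makeup in the other results was not tested.

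The 6 largest gains and 6 largest losses in mean CPM include 10 genes with no symbol, and of all 14044 genes tested 2672 have one. The 6 largest gains in mean CPM took 0.340 to 0.561% of the counts of a Tak-1 library and 3.73 to 3.96% of those of a Mpfer-1 library. Mp7g02900 alone had 1063, 583 and 1905 CPM in the Tak-1 libraries and 19923, 20517 and 18077 CPM in the Mpfer-1 libraries (log2 fold change 4.04, SE 0.49, adjusted p 2.60e-05), and Tak-1 replicate C was again the highest wild-type library. Mp2g01360 had 18.8, 21.5 and 25.2 against 2718, 2551 and 3997 CPM (log2 fold change 7.14, SE 0.65, adjusted p 2.75e-06). Mp2g07490, abundant in both groups, had 2699, 2616 and 3714 against 4547, 5122 and 5271 CPM (log2 fold change 0.73, SE 0.18, adjusted p 0.00461). The remaining gains were MpLEAL1, MpLEA-like49, with 1.03, 0.818 and 1.43 against 1528, 1507 and 1824 CPM, and Mp2g15740. The 6 largest losses dropped from 4.30 to 4.74% of the counts in Tak-1 to 1.55 to 1.87% in Mpfer-1. Mp4g10850, the most abundant of these, had 12959, 12692 and 15540.4 CPM in the Tak-1 libraries and 4998, 6052 and 5284 CPM in the Mpfer-1 libraries (log2 fold change -1.33, SE 0.16, adjusted p 1.86e-05). Mp8g15740 had 5488, 5786 and 6241 against 1007, 1342 and 1049 CPM (log2 fold change -2.37, SE 0.14, adjusted p 1.62e-07), and Mp3g03990, Mp4g06050, Mp2g12010 and Mp4g15080 fell with log2 fold changes of -1.5, -1.89, -1.94 and -1.30. In none of the 6 did the groups overlap.

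A minority of the large changes lay in runs of neighbouring genes, and no expected share was worked out. Counting runs of at least 4 successive tested genes changed at least 2-fold the same way, 45 runs held 229 of the 1642 rises (13.9%), and 33 runs held 166 of the 1406 falls (11.8%). After the polyketide synthase and PAL run, a long run of rises with symbols was 8 LEA genes around MpLEA-like45, with fitted log2 fold changes of 5.53 to 16.26. Of these, MpLEA-like44, MpLEA-like45 and MpLEA-like46 had 0 counts in Tak-1, so their fitted values depend on the prior count and are no bound. Another held 6 genes of the germin-like PR15 and cupin families, with log2 fold changes of 1.85 to 5.56. The longest run of falls held 10 genes without a symbol, from Mp4g05960 to Mp4g06050, with log2 fold changes of -2.35 to -1.17; its last gene is among the 6 largest losses in level. A run of 8 falls held 5 peroxidase genes (-6.65 to -1.78). Many such neighbours carry the name of 1 family, so shared reads may tie their values, and the order is known from locus numbers alone.

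The female line gave a test of which changes were of another size there. Its libraries labelled Mpmri-1 had more MpMRI than Tak-2, not less (log2 fold change 1.40), so what follows compares Mpfer-1 with libraries of that label, and sex and line cannot be told apart. The difference between both effects was called in 37.3% of genes, more positive in Mpfer-1 in 16.3% and less positive in 21.0%. This balance turned over on library totals (4673 more and 1661 less positive), which moved the median of the difference from -0.01 to 0.30. Of the 1642 genes at least 2-fold higher in Mpfer-1, the effect was less positive than in the female line in 356 (21.7%) and more positive in 264 (16.1%). These shares are near those of all genes. Of the 1406 genes at least 2-fold lower, it was less positive in 582 and more positive in 50. Both sets were chosen on the Mpfer-1 effect, itself a term of the difference, so these counts are no test.

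In several lists, among them phenolic metabolism, defence and cytochromes P450, less positive effects in Mpfer-1 outnumbered more positive ones, counting also members that fell. Of the 11 genes of the polyketide synthase and PAL run, 10 had a less positive effect in Mpfer-1, by -0.53 for MpPKS/CHS10 to -3.49 for MpPKS/CHS16 on the log2 scale, and MpPKS/CHS14 gave no call (difference 0.01, SE 0.26). WRKY factors had 9 of 13 less positive and 0 more (6 and 0 on library totals), dirigent proteins 27 of 50 against 5 (22 and 6), polyketide synthases 13 of 24 against 1 (11 and 3) and cytochromes P450 43 of 102 against 8 (30 and 17). Phenylpropanoid and flavonoid genes had 14 of 46 against 2, which became 10 and 9, and pathogenesis-related proteins 8 of 32 against 2 (7 and 2), to be read against 21.0% of all genes. MpGH19.3 differed by -4.23 (SE 0.64, adjusted p 5.77e-04) and MpPR1e, which fell in Mpfer-1, rose in the female line (log2 fold change 6.03, difference -7.64, adjusted p 2.72e-07).

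Core histones had 17 of 24 less positive effects in Mpfer-1 and 1 more positive (10 and 1 on library totals), with medians (log2 fold change) of -0.52 in Mpfer-1 and 0.36 in the female line. MpRBCS fell in Mpfer-1 and not in the female line (0.42), a difference of -2.23 (adjusted p 6.55e-05). MpAMT2.3 fell further in Mpfer-1 (difference -3.61, adjusted p 8.21e-04), and MpCYCD_2 had a log2 fold change of -1.27 in Mpfer-1 against about 0 in the female line (adjusted p of the difference 0.00213). Lists that went the other way were the C2H2, C3H and GRAS factors, with 23 of 67 more positive and 6 less (41 and 2 on library totals), pentatricopeptide repeat proteins with 21 and 9 of 72 (41 and 2), trihelix factors with 11 and 3 of 35 (19 and 1), homeodomain factors with 7 and 0 of 19 (10 and 0) and autophagy genes with 7 and 1 of 21 (13 and 0). MpPIN3 rose further (difference 1.64, adjusted p 0.00551), as did MpABI5B (0.97, 0.00429) and MpDHN1 (3.33, 0.0165). MpFBW3 had 1.66, 1.86 and 2.46 CPM in the Tak-1 libraries and 39.6, 37.4 and 38.9 CPM in the Mpfer-1 libraries and rose in Mpfer-1 (4.27) but fell in the female line (-1.54; difference 5.81, adjusted p 6.99e-09). Of 67 LEA genes 6 were more positive and 4 less, or 14 and 3 on library totals, and lipid droplet proteins had 1 and 2 of 8, or 2 and 1.

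**Figure D5:**
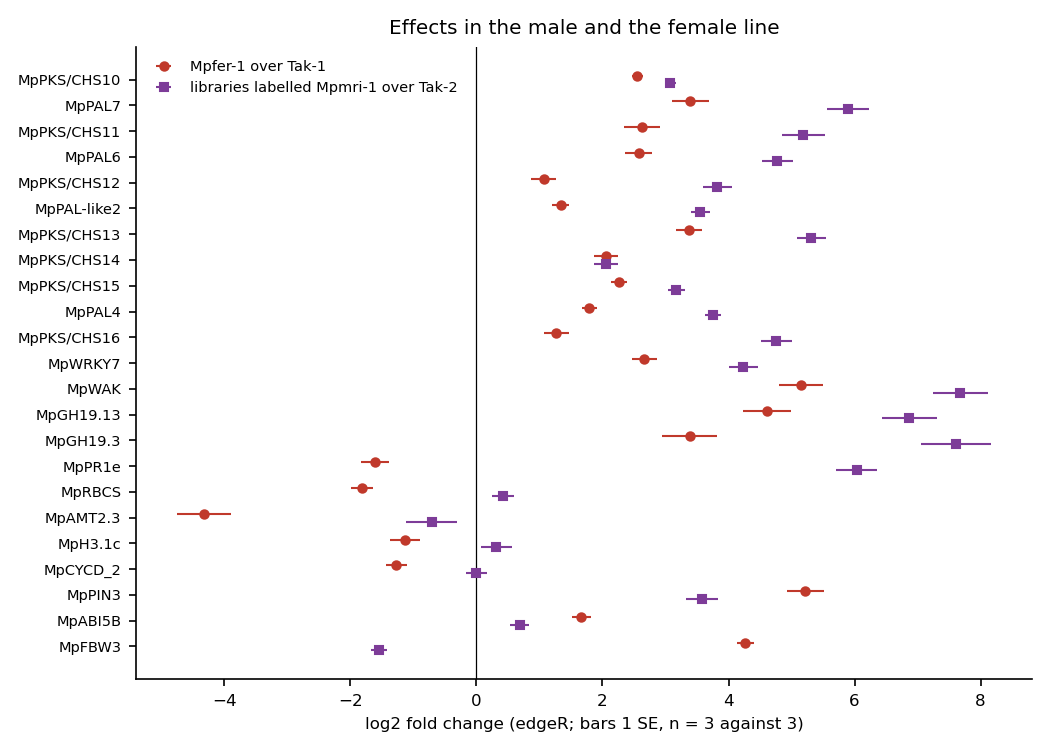
Log2 fold change (dots and squares) with bars of 1 SE for the 11 genes of the polyketide synthase and PAL run and 12 genes chosen after their values were seen, in Mpfer-1 over Tak-1 (red) and in the libraries labelled Mpmri-1 over Tak-2 (purple), 3 libraries in each group. The run lies further right in the female line except for MpPKS/CHS14, MpPR1e and MpFBW3 lie on opposite sides of 0, and MpPIN3 and MpABI5B lie further right in Mpfer-1.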

How the data were processed

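RNA was measured by mRNA sequencing with a stranded kit, per the labels' protocols. External spike-in RNA was added, but the table used here holds 0 rows of it. The authors deposited estimated counts, not normalized, for 23399 transcript models. The submitters' processing notes name FastQC, fastp and DESeq2, while quantifier, build and annotation are not given in the sources here. Fractional values mean that the authors' method divided reads between models, so near-identical genes may share reads.

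Estimated counts were summed to 18336 genes by removing the final dot and number, then rounded. Library totals ran from 28357960 to 35313222 counts in the male libraries, and replicates differed by more than sampling noise (chi-square per degree of freedom 5.14 to 37.2), so none was taken as a duplicate. The quasi-likelihood F test of edgeR 4.0.16 (R 4.3.3) was fitted to all 12 libraries with TMM and a mean for each of the 4 groups, leaving 8 residual degrees of freedom, after the default filter by group (14044 genes kept). Benjamini-Hochberg adjustment ran over all genes tested, with a call under 0.05. The SE was taken as the effect over the square root of F. The difference between lines is the Mpfer-1 effect minus that in the libraries labelled Mpmri-1. A fold against a group at 0 is a bound against 3 counts over the group and covers counting error only.

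Symbols came from a reference table of assembly MpTak2_v7.1, joined by locus number (symbols for 2672 of the genes tested). The join was checked with isoform numbers, equal in 90.2% of 17416 genes and in 76.3% when shifted by 1 gene. No coordinates are printed. Gene lists are patterns of letters in the symbols; some patterns that caught other families were corrected, and lists added, by symbol alone. The members and lists were chosen with earlier results of these data known, so no list is tested as a set. Named genes are MpFER and MpMRI; per list the called member with the largest change, the most abundant called member and the largest exception; the 8 largest rises and falls with a symbol and at least 10 CPM in Tak-1; the 6 largest gains and losses in CPM; and the 4 largest differences each way between lines. Genes named beyond this rule, or as a whole short list, were chosen after their values were seen. A run is at least 4 successive tested genes.

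On simulated counts from the Tak-1 means (13550 genes), the test found 60.3% of 1.5-fold, 83.3% of 2-fold and 100% of 4-fold changes. It called 0.0824% of unchanged genes. The simulation left 13350 of its genes unchanged, whereas 56.2% of genes were called in the data. With few genes changed the adjustment demands a smaller p-value, so these shares do not carry over to the data. The alternatives were DESeq2 1.42.0, limma voom (limma 3.58.1), RLE factors, library totals without TMM, no filter, the 6 male libraries alone, a replicate block, and leaving out each of the 6 libraries. Promoter motifs were not analysed here.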

Additional observations from a re-analysis of the deposited data

Results flagged for a closer look

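The results that follow stood out because the edgeR test of the difference between the Mpfer-1 effect and the effect in the libraries labelled Mpmri-1 was called (adjusted p under 0.05), which was so in 37.3% of all genes tested. Each value is that difference in log2 fold change. On library totals the median difference of all genes is 0.30 in place of -0.01, so small differences depend on the scale.

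Among the receptor, its partners and abscisic acid genes it was -0.87 for MpFERONIA/MpTHESEUS, -1.46 for MpMRI, -0.49 for MpRALF1, -0.77 for MpRALF2, -2.86 for MpCYP707A, -0.43 for MpPYL1, -0.35 for MpSNRK2B, 0.81 for MpABA4 and 0.97 for MpABI5B. For drying and oil storage genes it was 3.33 for MpDHN1, 1.93 for MpLEA-like50, -0.95 for MpLEA-like54, 0.69 for MpLDAP, -0.47 for MpLDPS1 and -2.38 for MpLDPS2.

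For defence genes the difference was -7.64 for MpPR1e, -2.26 for MpGH19.13, -4.23 for MpGH19.3, -2.53 for MpWAK, -1.57 for MpWRKY7, -0.80 for MpWRKY11 and -1.93 for MpWRKY13. Along the polyketide synthase and PAL run it was -0.53, -2.50, -2.56, -2.20, -2.76, -2.22, -1.94, -0.90, -1.96 and -3.49 in locus order, for MpPKS/CHS10, MpPAL7, MpPKS/CHS11, MpPAL6, MpPKS/CHS12, MpPAL-like2, MpPKS/CHS13, MpPKS/CHS15, MpPAL4 and MpPKS/CHS16. For other genes of secondary metabolism and detoxification it was -1.25 for MpC4H1, -1.34 for MpDFR-like5, -1.39 for MpCYP822A1, -3.01 for MpFTPSL8, -2.28 for MpTPS-like1, -1.83 for MpGST16 and -0.44 for MpCAT2.

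For oxidising enzymes, dirigent proteins and cupins it was -1.19 for MpPOD154, -0.98 for MpPOD164, 5.01 for MpPOD49, 0.96 for MpPPO8, 6.12 for MpDIR44, -5.36 for MpDIR54 and -2.1 for MpCupin75. For the wall and transport it was -2.1 for MpExpansin25, -3.58 for MpPIP2-like, -0.83 for MpNIP, -1.21 for MpAMT1.2, -3.61 for MpAMT2.3, 1.30 for MpHA1, -1.79 for MpHA4, 0.61 for MpPIN1 and 1.64 for MpPIN3. Among genes of light use, division, cytoskeleton, lipids and gemma cups it was -2.23 for MpRBCS, 0.36 for MpCOP1, -1.45 for MpH3.1c, -0.39 for MpH2A.X.1, -1.43 for MpCYCB_1, -1.27 for MpCYCD_2, 0.58 for MpKRP, 0.76 for MpRBR, -0.41 for MpACT1, -0.61 for MpACT2, -0.47 for MpFAD10 and -2.34 for MpGCAM1. Among the abundant genes without a symbol it was 2.69 for Mp2g01360, -3.79 for Mp7g02900, -1.04 for Mp4g10850, -0.92 for Mp8g15740, -1.0 for Mp4g06050, -0.80 for Mp3g03990, -1.57 for Mp2g12010 and -1.14 for Mp4g15080.

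The largest differences each way among named genes were these. MpTPS6 had 2.90, 2.64 and 2.48 against 0.433, 0.647 and 0.0730 CPM in Tak-1 and Mpfer-1, and 0 counts in Tak-2 against a mean of 119 CPM in the libraries labelled Mpmri-1 (difference -17.69). MpCIS6 had 13.3, 8.75 and 11.8 against 0.144, 0 and 0 CPM and a female log2 fold change of 2.31 (difference -10.12). MpCYP716-like24 had 0.233, 0.0629 and 0.314 against 3.29, 3.27 and 2.22 CPM, and 0 counts in Tak-2 (difference -6.81). MpCYP704-like8 had 0.799, 0.346 and 0.943 against 10.1, 11.1 and 12.6 CPM and a female log2 fold change of -8.20 (difference 12.20). MpFBW3 differed by 5.81. Fitted differences that rest on groups at or near 0 counts depend on the prior count and are no bound.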

How the results depend on the processing

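Over 13 alternatives the calls ranged from 6956 to 8271 and those of at least 2-fold from 2942 to 3333, within 1.5 times the reported counts. The log2 fold change of MpFER lay between -0.83 (without Tak-1 replicate C) and -0.61 (library totals). Scaling decides the balance of directions: library totals gave 5460 higher and 2666 lower and turned the calls of the Rab and Rop GTPases, the desaturases, the phosphatases 2C and the autophagy genes to more higher than lower. The letters A, B and C were not taken as pairs, since the deviations of same-letter libraries from their group means correlated at 0.168, 0.0519 and 0.100, although each library correlated best with its own letter. With the replicate block 7659 genes were called, 3034 of them at least 2-fold, and 4943 for the difference between lines (4234 to 6334 over all alternatives). Directions reversed for genes that had no call: on library totals for MpLDAL1 (0.073), MpMRI (0.11), MpPYL1 (0.062) and MpRALF1 (1.47e-04), and on leaving out 1 library for MpMRI (-0.072 to 0.0066, without Mpfer-1 replicate B), MpCYP707A (-0.20, without Mpfer-1 replicate C, to 0.29), MpBHLH14 (-0.096, without Tak-1 replicate C, to 0.10) and MpCSLD3 (-0.038, without Tak-1 replicate C, to 0.13). The cause was not tested. MpRALF1 became a call in the male libraries alone (log2 fold change -0.18, adjusted p 0.0331). With 3 libraries a group, changes of 1.5-fold were often missed in the simulation, in which far fewer genes changed than were called here.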
